A study of Mus musculus with 8 samples.

Results

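The mitochondrial ribosomal proteins build the mitoribosome, the ribosome that works inside mitochondria, and 78 genes named for them were followed in mouse liver after knockdown of Eif4ebp3. Members were taken by name: every gene whose symbol begins with Mrpl or Mrps and then a digit, 49 and 29 genes, out of 55536 genes with an identifier. Another 5 genes of that form are named as pseudogenes and were left out. All 78 members had enough counts to be tested.

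Both groups were lean wild-type C57BL/6 mice of 2 months that received 0.1 OD of adenovirus, were fasted overnight and gave their livers 1 week after the injection. In the knockdown group (n = 4) the virus carried a short hairpin RNA against Eif4ebp3, which encodes an inhibitor of the cap-binding factor eIF4E. In the control group (n = 4) the hairpin was directed at lacZ, a bacterial gene that mice lack. The labels name no promoter or cell type that restricts the hairpin, and the RNA came from whole liver, depleted of ribosomal RNA. The design compares the livers for transcripts that differ when Eif4ebp3 is reduced.

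All mitoribosomal proteins are encoded in the nucleus, translated by cytosolic ribosomes and imported into the mitochondrial matrix. There they join the 2 ribosomal RNAs of the mitochondrial genome to form a small subunit, which binds and decodes the messenger RNA, and a large subunit, which joins the amino acids. The assembled particle makes the 13 proteins that the mitochondrial genome encodes, all of them parts of the respiratory chain or the ATP synthase, which the fasted liver uses to oxidise fatty acids. Some of the proteins descend from bacterial ribosomal proteins and others are found only in mitochondria. Current structures place the products of Mrps18a and Mrps30 in the large subunit, and that of Mrps36 in the alpha-ketoglutarate dehydrogenase complex, so the large subunit has 51 members here, the small subunit 26, and Mrps36 stands apart.

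Eif4ebp3 itself held 289, 216, 204 and 49.3 CPM (normalised counts) in control replicates 1 to 4, and 9.62, 13.9, 37.2 and 19.5 CPM in knockdown replicates 1 to 4. The groups did not overlap (log2 change -3.24, adjusted p = 0.000379, edgeR). Control replicate 4 was the lowest control and knockdown replicate 3 the highest knockdown sample. Total counts ranged from 24371461 to 32389444 per sample, and the counts of 1 member in 1 sample from 42 (Mrpl23) to 2869 (Mrpl12). CPM scale the counts of a gene to a common library size with TMM factors, which were 0.7759 to 0.8903 in the controls and 1.147 to 1.265 in the knockdown samples. Leaving these factors out (total-count scaling) shifted the median of all genes from 0.00 to 0.56 on the log2 scale, so every change below is relative to the median gene. A gene is said to rise or fall where the edgeR p-value, adjusted over all 15375 genes tested, was under 0.05.

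Mitoribosomal transcripts fell more often than they rose in the knockdown livers, and by small amounts. With 57.2% of all genes tested called in either direction, 32 of the 78 members were called: 26 fell (33.3%, where 27.8% of all genes tested fell), 6 rose (7.69%, where 29.5% of all genes rose) and 46 did not pass the test. Without Mrps36, which is not part of the mitoribosome, 5 of 77 rose (6.49%) and 26 fell (33.8%). In RNA from whole liver, fewer cells of a type and less RNA per cell cannot be told apart. The median log2 change of the members was -0.18, with quartiles of -0.33 and -0.06 and a range from -0.79 to 0.65, while all genes had quartiles of -0.40 and 0.56. Only 5 members changed by 1.5-fold or more: Mrps5, Mrps24, Mrps35 and Mrps2 fell and Mrps6 rose. Each knockdown sample lay below each control for 29 members (37.2%, against 24.7% of all genes) and above for 4 (5.13%, against 27.4%), where 52.1% of all genes had groups that did not overlap.

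The direction depended on the scaling. With total-count scaling, which called 71.7% of all genes, 60 members rose (76.9%, against 63.9% of all genes) and 1 fell (1.28%, against 7.72%), and the median of the members was 0.39, below the 0.56 of all genes. Mrps5 fell under both scalings and the same 6 members rose under both, while 8 of the 26 that fell with TMM factors (Mrpl9, Mrpl37, Mrpl38, Mrpl39, Mrpl43, Mrpl51, Mrps7 and Mrps9) rose. Knockdown replicate 3 lay nearest the controls: its median member was at -0.04 (log2) from the control mean, against -0.30, -0.18 and -0.19 in knockdown replicates 1, 2 and 4. Without knockdown replicate 3, 40 members fell and 2 rose, while 27.7% of all genes fell and 29% rose in that fit. The count that rose was 3 without control replicate 1, knockdown replicate 2 or knockdown replicate 4, where 26.6%, 26.3% and 27.7% of all genes rose, and 2 without control replicate 2 or control replicate 3, where 26.7% and 27.4% rose. Sample codes carry a letter that the labels do not explain, and among the 3 samples per group coded C alone 27 members fell and 3 rose (27.8% and 29.6% of all genes), while the other letter holds 1 sample per group.

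**Figure D1:**
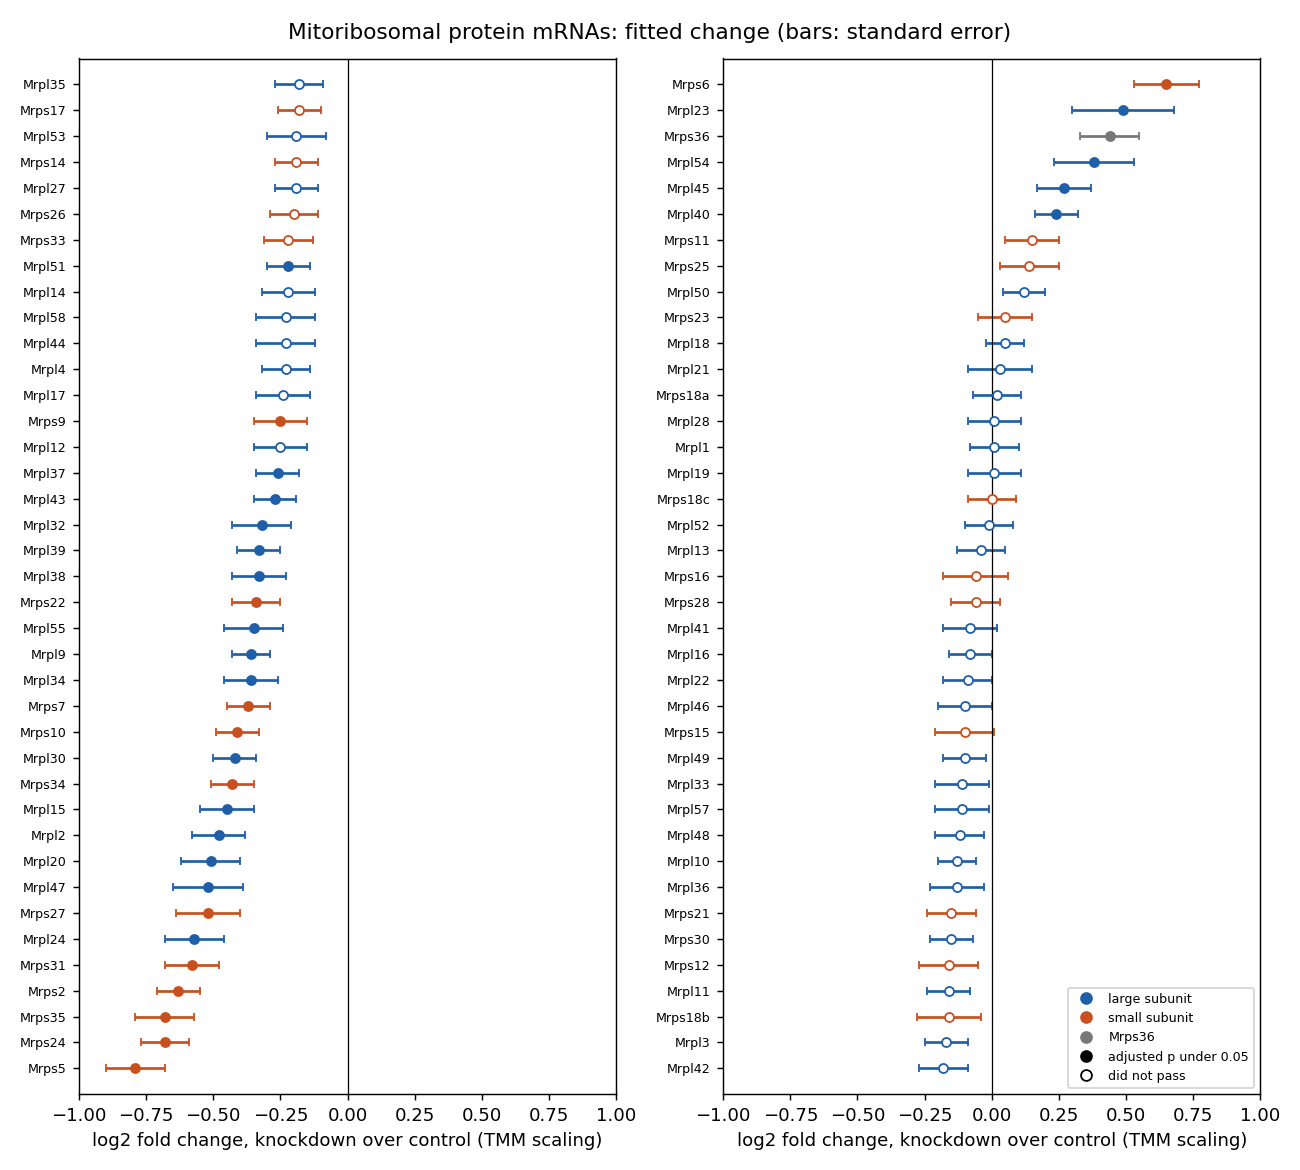
Log2 change of each of the 78 members, knockdown over control with TMM factors, with its standard error, on a horizontal axis from -1 to 1. Blue points are large subunit members, orange points small subunit members and the grey point Mrps36, and filled points have an adjusted p under 0.05. Mrps5 at -0.79 and Mrps6 at 0.65 are the ends of the range. With total-count scaling 60 members lie above 0 and pass the test (76.9%, against 63.9% of all genes).

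The largest falls were in the small subunit, whose proteins Mrps5 and Mrps2 descend from bacterial S5 and S2. Mrps5 (chromosome 2, 127587222 to 127606829 of mm10) held 69.8, 73.0, 65.4 and 56.5 CPM in control livers and 34.7, 36.7, 45.5 and 35.8 CPM in knockdown livers. Every knockdown sample was below every control, and the change was -0.79 ± 0.11 (log2, SE), from 66.2 ± 7.17 to 38.2 ± 4.94 CPM (SD, n = 4 each, adjusted p = 0.000108, edgeR). It is the member that also fell with total-count scaling, by 0.22 on the log2 scale (adjusted p = 0.0377, edgeR).

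Mrps24 (chromosome 11, 5703983 to 5715680), whose product is the mitochondrial counterpart of bacterial S3, held 36.9, 34.1, 34.1 and 36.0 CPM in control livers and 20.3, 20.4, 25.8 and 21.7 CPM in knockdown livers. The groups were apart, with a log2 change of -0.68 ± 0.09 (SE, adjusted p = 0.000100, edgeR). Of its exon bases 15.4% are shared with Urgcp on the same strand, which itself did not pass the test (-0.03).

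Mrps35 (chromosome 6, 147042764 to 147073991) is a mitochondria-specific protein of the small subunit. It held 21.8, 23.6, 21.9 and 18.2 CPM in control livers and 11.9, 13.1, 15.3 and 13.2 CPM in knockdown livers. Again no sample overlapped (-0.68 ± 0.11, SE, adjusted p = 0.000349, edgeR).

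Mrps2 (chromosome 2, 28468066 to 28471178) held 47.5, 44.5, 44.4 and 38.8 CPM against 27.3, 27.4, 30 and 28.6 CPM, a log2 change of -0.63 ± 0.08 (SE, adjusted p = 6.91e-05, edgeR). Mrps31 (chromosome 8, 22411361 to 22429665), also specific to mitochondria, held 42.2, 39.5, 43.6 and 34.8 CPM against 23.5, 25.2, 28 and 30 CPM, and fell by 0.58 on the log2 scale (adjusted p = 0.000552, edgeR). In both, all knockdown samples were below all controls. With total-count scaling Mrps24, Mrps35, Mrps2 and Mrps31 did not pass, with log2 changes of -0.12, -0.11, -0.06 and -0.01.

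The other members among the 8 largest falls were Mrpl24, Mrps27 and Mrpl47. Mrpl24 (chromosome 3, 87919506 to 87923672), which lines the exit of the peptide tunnel, held 72.7, 68.6, 68.2 and 56.1 CPM in control livers and 42.7, 41.5, 53.0 and 42.0 CPM in knockdown livers. Its lowest control, replicate 4, and its highest knockdown sample, replicate 3, came within a few CPM of each other (-0.57 ± 0.11, SE, adjusted p = 0.000895, edgeR), and 26.3% of its exon bases are shared with Rrnad1 on the opposite strand. Mrps27, a pentatricopeptide repeat protein, went from 25.1 ± 2.93 to 17.6 ± 2.81 CPM, and Mrpl47, the counterpart of bacterial L29, from 11.8 ± 1.47 to 8.23 ± 0.919 CPM (SD, n = 4 each), each with a log2 change of -0.52. In both genes the knockdown samples were below the controls, and 24.2% of the exon bases of each are shared with genes on the opposite strand (for Mrpl47, Ndufb5 with a change of -0.72 and Actl6a with 0.38). With total-count scaling Mrpl24, Mrps27 and Mrpl47 stood at 0.00, 0.04 and 0.05 and did not pass.

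Of the 6 members that rose, Mrps6 and Mrps36 passed with each sample left out in turn. Mrps6 (chromosome 16, 92058270 to 92112227), the counterpart of bacterial S6, held 5.57, 6.45, 6.07 and 5.85 CPM in control livers and 8.68, 10.5, 10.1 and 8.21 CPM in knockdown livers. The groups did not overlap, and the change was 0.65 ± 0.12 (log2, SE, adjusted p = 0.00112, edgeR), or 1.21 with total-count scaling. Of its exon bases 19.9% are shared on the same strand with Slc5a3, whose own change of 0.37 ± 0.23 did not pass, or with Gm49711, which held 0 counts in every sample. Mrps36 held 6.58, 6.92, 5.66 and 6.90 CPM against 8.17, 8.81, 9.15 and 9.18 CPM, again without overlap (0.44 ± 0.11, SE, adjusted p = 0.00727, edgeR).

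Mrpl23, Mrpl54, Mrpl45 and Mrpl40 also rose, with larger adjusted p-values. Mrpl23, at the tunnel exit, held 2.74, 2.57, 2.16 and 2.83 CPM against 3.12, 3.20, 4.68 and 3.49 CPM, without overlap (0.49 ± 0.19, SE, adjusted p = 0.045, edgeR). Mrpl45, which ties the ribosome to the inner membrane, went from 22.9 ± 1.89 to 27.7 ± 2.72 CPM with control replicate 4 inside the range of the knockdown samples. Mrpl54, a stalk protein, went from 16.4 ± 1.19 to 21.4 ± 4.83 CPM, and knockdown replicate 1 at 16.0 CPM was level with the controls. Mrpl40, of the central protuberance, went from 15.6 ± 0.725 to 18.4 ± 1.17 CPM (SD, n = 4 each) without overlap. All 4 lost the call without control replicate 2, control replicate 3 or knockdown replicate 3. Mrpl23 and Mrpl54 also lost it without control replicate 1, knockdown replicate 2 or knockdown replicate 4, Mrpl54 without control replicate 4, Mrpl45 without control replicate 1 or knockdown replicate 2, and Mrpl40 without control replicate 4, knockdown replicate 1 or knockdown replicate 4. In these fits the adjusted p ran from 0.0531 to 0.115 for Mrpl23, from 0.0564 to 0.117 for Mrpl54, from 0.0711 to 0.0888 for Mrpl45 and from 0.0555 to 0.0865 for Mrpl40 (edgeR), and each change stayed above 0.

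**Figure D2:**
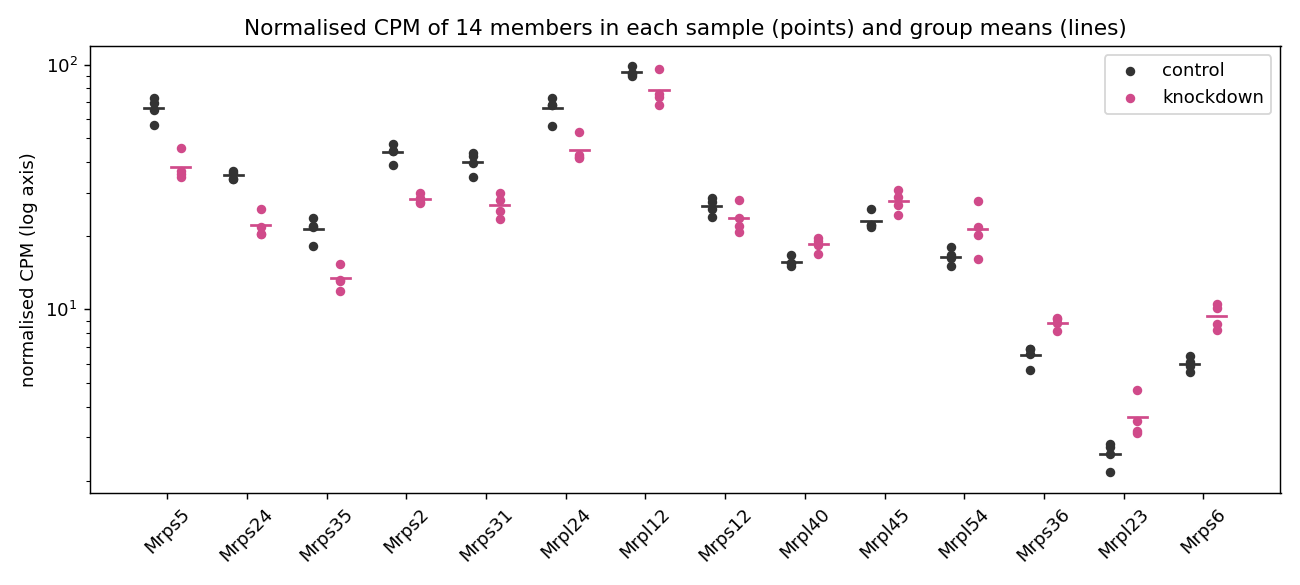
Normalised CPM on a logarithmic axis of 14 members in each of the 4 control (black) and 4 knockdown (pink) samples, with lines at the group means. From Mrps5 to Mrpl24 the pink points lie below the black ones, and in Mrps6, Mrps36, Mrpl23 and Mrpl40 above them. Relative to the median gene these are falls and rises, while with total-count scaling Mrpl24 stands at 0.00 and Mrpl12 and Mrps12 lie above 0.

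Mrpl12, a protein of the stalk that receives translation factors and that has been reported to bind the mitochondrial RNA polymerase, did not pass the test. It held 98.4, 91.8, 92.2 and 89.5 CPM in control livers and 68.3, 76.1, 95.6 and 73.6 CPM in knockdown livers (-0.25 ± 0.10, SE, adjusted p = 0.0574, edgeR). Knockdown replicate 3 was above 3 of the controls while the other knockdown samples were below all of them. Without it Mrpl12 passed, at -0.36 (adjusted p = 0.00207, edgeR), and with all samples it also passed with RLE factors, DESeq2 and limma-voom, at adjusted p-values of 0.0499, 0.0451 and 0.0448. With total-count scaling Mrpl12 rose, by 0.32 (adjusted p = 0.00611, edgeR).

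Other members with a known special role had small changes. Mrpl11, at the base of the stalk, and Mrps12, of the decoding centre, both had a log2 change of -0.16, with adjusted p-values of 0.119 and 0.221 (edgeR). Mrpl58, which doubles as a peptidyl-tRNA hydrolase that frees stalled ribosomes, stood at -0.23 (adjusted p = 0.0965, edgeR), and it and Mrps12 passed without knockdown replicate 3, at -0.32 and -0.25. With total-count scaling Mrpl11, Mrps12 and Mrpl58 rose, by 0.41, 0.40 and 0.34. Mrpl32, which is cut into its mature form by the m-AAA protease, went from 15.8 ± 1.06 to 12.6 ± 1.52 CPM (SD, n = 4 each) and fell by 0.32 on the log2 scale (adjusted p = 0.0236, edgeR), with knockdown replicate 4 and control replicate 3 both at 14.8 CPM. Its call was lost without control replicate 1, knockdown replicate 1 or knockdown replicate 2, with adjusted p-values of 0.0537, 0.0608 and 0.0663 (edgeR), and with upper-quartile factors (0.0808) or no filter (0.0583). Its change was 0.24 with total-count scaling.

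Mice have 3 paralogues of bacterial S18. In the split by origin below, Mrps18c counts among the members with a bacterial counterpart, and Mrps18a and Mrps18b among the mitochondria-specific ones. Mrps18a held 23.5 ± 1.36 CPM in control livers and 23.9 ± 2.41 CPM in the knockdown samples, and Mrps18c 17.8 ± 0.300 and 17.8 ± 1.80 CPM. Mrps18b held 44.3 ± 6.48 and 39.7 ± 4.32 CPM (SD, n = 4 each). None of the paralogues passed with all samples, with changes of 0.02, 0.00 and -0.16 for Mrps18a, Mrps18c and Mrps18b, while with total-count scaling all 3 rose, by 0.59, 0.57 and 0.41. However, Mrps18b passed without control replicate 4, whose 35.4 CPM was the lowest control (-0.26, adjusted p = 0.0385, edgeR).

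Levels of different members can be compared only per length. In the controls they ran from 2.37 to 80.1 CPM per kilobase, with a median of 17.4. Mrps34, Mrpl12 and Mrpl30 were highest, at 80.1, 70.6 and 66.8 CPM per kilobase, and Mrpl19, Mrps25 and Mrpl23 lowest, at 2.37, 2.53 and 3.50. The order was nearly kept in the knockdown samples (Spearman rho = 0.97 over the 78 members, a description in which each group shares its libraries). Mrps34 fell from 73.5 ± 2.62 to 54.4 ± 4.71 CPM and Mrpl30 from 44.2 ± 1.73 to 33.0 ± 3.02 CPM, with log2 changes of -0.43 and -0.42 that were 0.13 and 0.14 with total-count scaling. Mrpl19 and Mrps25 did not pass, at 0.01 and 0.14. The levels of Mrps34 and Mrps25 are uncertain, since 77.8% of the exon bases of Mrps34 are shared with Nme3 or Mapk8ip3 and 69.8% of those of Mrps25 with Nr2c2, and the use of strand in counting was not given in the sources used here.

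Members of the small subunit made up a smaller share of the mitoribosomal counts in the knockdown samples. In the small subunit 11 of 26 members fell (42.3%) and 1 rose (3.85%), with a median of -0.20. In the large subunit 15 of 51 fell (29.4%) and 4 rose (7.84%), with a median of -0.17. Over all genes tested 27.8% fell and 29.5% rose, and the difference between the subunits in these counts was not tested. The summed CPM of the large subunit divided by that of the small subunit was 2.04, 2.02, 2.03 and 2.05 in the controls and 2.25, 2.23, 2.26 and 2.17 in the knockdown samples. The ratio was higher in every knockdown sample than in every control, 2.23 ± 0.038 against 2.03 ± 0.012 (SD, n = 4 each), and it does not depend on the scaling. Mrps5 took part in it: without this gene the ratio was 2.38 ± 0.050 against 2.23 ± 0.011, still without overlap. With each member counted per kilobase it was 2.29 ± 0.055 against 2.15 ± 0.0053, and with geometric means of the members 1.12 ± 0.014 against 1.06 ± 0.014. Relative to the control value the rise was 9.64% in the sums, 6.77% without Mrps5, 6.46% per kilobase and 6% with geometric means.

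Of 46 members with a bacterial counterpart 16 fell (34.8%), and of 31 mitochondria-specific ones 10 fell (32.3%), both classes with a median of -0.18. Over all genes tested 27.8% fell and 29.5% rose. Within the mitochondria-specific proteins, 5 of 10 in the small subunit fell and none rose (median -0.28), while in the large subunit 5 of 21 fell and 3 rose (median -0.12). Some members of the large subunit were also assigned to a place in it, and these lists may not be complete. Of 5 members assigned to the stalk none fell and Mrpl54 rose. Of 7 assigned to the central protuberance 1 fell (Mrpl38) and Mrpl40 rose. Of 9 assigned to the tunnel exit Mrpl24, Mrpl39 and Mrpl47 fell and Mrpl23 and Mrpl45 rose. Mrpl55, which fell (-0.35), and Mrpl58, which did not pass, were assigned to none of these places. These counts are descriptions, and differences between the classes were not tested.

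Promoter sequence was looked at because many mitochondrial genes are known targets of nuclear respiratory factor 1 (NRF1), of the ETS factor GABP (also called NRF2) and of YY1. RefSeq on GRCm38.p6 gave a start for 69 of the 78 members, and the window searched on both strands ran from 250 bases before to 50 bases after it. The palindromic NRF1 site (GCGCA followed directly by TGCGC) was in 3 of the 69 windows (4.35%, against 0.977% of all 27025 windows), the shorter related letters TGCGCA, which can overlap it, in 21 (30.4% against 8.06%), the ETS letters CCGGAAG in 25 (36.2% against 9.12%) and the YY1 letters AAGATGGC in 12 (17.4% against 2.88%). At least 1 of these was in 44 windows (63.8% against 18.1%). The SP letters GGGCGG were in 49.3% against 35.9%, the E-box CACGTG in 7.25% against 7.24%, CCAAT in 39.1% against 37.9%, and TATAAA in 5.80% against 14.2%. A match is a stretch of letters, not a shown site of binding.

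The 3 members with the full NRF1 letters, Mrpl32, Mrpl39 and Mrpl9, all fell with TMM factors, with log2 changes of -0.32, -0.33 and -0.36, and had changes of 0.24, 0.24 and 0.21 with total-count scaling. Of the 25 members with the ETS letters 5 fell (20%) and none rose, against 38.6% and 11.4% of those without. Of the 12 with the YY1 letters 5 fell (41.7%) and none rose, against 29.8% and 8.77%. Of the 21 with TGCGCA 5 fell (23.8%) and 3 rose (14.3%), among them Mrps6, against 35.4% and 4.17%. Over all genes tested 27.8% fell and 29.5% rose, and differences by these letters were not tested. The 250 bases before the start are printed for the 3 members with the full NRF1 letters and for Mrps5 and Mrps6, the ends of the range of change. They run 5′ to 3′ on the strand of the gene, from chr13:14613038-14613287 (minus strand), chr16:84735245-84735494 (minus), chr3:94443086-94443335 (plus), chr2:127587176-127587425 (plus) and chr16:92058086-92058335 (plus), and capitals mark NRF1, TGCGCA and YY1 letters, the last read on the opposite strand in Mrpl32.
Mrpl32: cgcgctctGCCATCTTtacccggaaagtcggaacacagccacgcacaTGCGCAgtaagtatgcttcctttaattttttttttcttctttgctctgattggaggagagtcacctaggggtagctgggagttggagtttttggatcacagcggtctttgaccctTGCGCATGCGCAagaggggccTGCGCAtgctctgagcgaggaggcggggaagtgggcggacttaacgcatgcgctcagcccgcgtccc
Mrpl39: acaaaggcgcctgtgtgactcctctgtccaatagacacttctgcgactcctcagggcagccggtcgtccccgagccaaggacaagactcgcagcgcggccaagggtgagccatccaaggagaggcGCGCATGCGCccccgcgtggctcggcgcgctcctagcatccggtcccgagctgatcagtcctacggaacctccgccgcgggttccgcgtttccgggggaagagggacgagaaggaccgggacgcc
Mrpl9: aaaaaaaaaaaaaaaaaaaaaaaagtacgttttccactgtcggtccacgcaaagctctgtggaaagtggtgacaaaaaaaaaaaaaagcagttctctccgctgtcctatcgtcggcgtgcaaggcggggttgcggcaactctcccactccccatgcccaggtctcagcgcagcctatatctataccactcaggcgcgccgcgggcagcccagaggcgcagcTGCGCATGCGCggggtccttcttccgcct
Mrps5: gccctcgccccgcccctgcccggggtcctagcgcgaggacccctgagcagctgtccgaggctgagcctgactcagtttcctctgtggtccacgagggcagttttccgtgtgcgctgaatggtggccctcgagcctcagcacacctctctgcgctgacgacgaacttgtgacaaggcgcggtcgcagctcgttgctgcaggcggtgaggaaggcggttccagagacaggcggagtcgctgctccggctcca
Mrps6: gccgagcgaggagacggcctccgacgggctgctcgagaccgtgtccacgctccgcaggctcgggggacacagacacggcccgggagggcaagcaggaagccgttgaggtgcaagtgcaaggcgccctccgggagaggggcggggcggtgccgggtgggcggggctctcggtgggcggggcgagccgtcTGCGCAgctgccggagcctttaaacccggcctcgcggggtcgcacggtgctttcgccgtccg
In Mrpl32 the NRF1 letters lie 87 to 78 bases before the RefSeq start, in Mrpl39 125 to 116 and in Mrpl9 28 to 19. For each printed gene the GENCODE start lies upstream of the RefSeq start, at 14613165 in Mrpl32, 84735742 in Mrpl39 and 94443318 in Mrpl9. The bases printed for Mrpl39 and the NRF1 letters of Mrpl32 thus lie inside the GENCODE genes. Mrpl32 carries TGCGCA at 4 places, 2 of them overlapping the NRF1 letters. In the bases printed for Mrps5 none of the NRF1, TGCGCA, ETS and YY1 letters was found, which says only that they are not in this window. Most of that window lies after the GENCODE start of Mrps5 at 127587222.

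Members also share a genomic layout. Of the 78 members 33 (42.3%) have the start of another protein-coding gene on the opposite strand within 1000 bases, against 10.9% of 21951 protein-coding genes in GENCODE release 21. Mrpl46 and Mrps11 face each other, with starts 412 bases apart, and neither passed the test (-0.10 and 0.15). Of 30 member and partner pairs in which both were tested, 14 partners fell, 6 rose and 10 did not pass, with a median of -0.17. Over all genes tested 27.8% fell and 29.5% rose. Of the pairs 8 were called the same way and 3 opposite ways, and the log2 changes had a Pearson r of 0.21 across the pairs. Some pairs share exon bases, among them Mrpl43 with Twnk (33.4% of the exon bases of Mrpl43) and Mrpl47 with Ndufb5, both called the same way. As the use of strand in counting was not given, the counts of such pairs may not be separate. Whether partners change together more than other genes was not tested. Mrps5 and the zinc finger gene Zfp661 start 128 bases apart, and Zfp661 fell by 0.63 on the log2 scale (adjusted p = 0.00879, edgeR). Mrps27 and Ptcd2 start 81 bases apart and also fell together (-0.52 and -0.41). Mrpl51 fell while Ncapd2, a condensin subunit, rose from a start 100 bases away (-0.22 and 1.34), and Mrpl54 rose while Apba3 fell (0.38 and -0.48).

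Other genes of mitochondrial gene expression were counted from lists by role. Beside the counts of these lists and those below, 27.8% of all genes tested fell and 29.5% rose with TMM factors. With total-count scaling 7.72% of all genes fell and 63.9% rose. Among 5 mitoribosomal proteins with other names, Ptcd3 (-0.39) and Aurkaip1 (-0.29) fell and none rose. Among 30 genes for assembly of the mitoribosome and modification of its RNA, 12 fell and 1 rose (median -0.23). Of these the GTPases Mtg1 and Mtg2 and the ribosome biogenesis factor Mterf3 fell, by 0.78, 0.69 and 0.71 on the log2 scale, and the pseudouridine synthase Rpusd4 rose by 0.84. With total-count scaling 21 of the 30 rose, Rpusd4 among them, and none fell (median 0.34). Mtg1, Mtg2 and Mterf3 then stood at -0.21, -0.13 and -0.13 and did not pass. Of 17 genes for mitochondrial translation and the handling of its messenger RNAs and products 12 fell and none rose (median -0.38), among them the initiation factor Mtif2 (-0.73), the elongation factor Gfm1 (-0.71), the Cox1 activator Taco1 (-0.67) and the recycling factor Gfm2 (-0.61). This list also holds genes that are not translation factors, of which Lrpprc, which stabilises messenger RNAs, the membrane insertase Oxa1l and the N-terminal processing enzymes Pdf and Metap1d fell and Slirp, the partner of Lrpprc, did not pass. Gfm1 went from 135 ± 7.47 to 82.3 ± 2.47 CPM (SD, n = 4 each, adjusted p = 1e-05, edgeR). With total-count scaling none of this list fell and 5 rose.

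Of 20 genes for mitochondrial aminoacyl-tRNA synthesis 8 fell and 1 rose (median -0.07). With total-count scaling 1 of these fell and 15 rose (median 0.49). The asparaginyl-tRNA synthetase Nars2 went from 18.7 ± 0.663 to 10.1 ± 0.308 CPM (SD, n = 4 each), a log2 change of -0.88, or -0.31 with total-count scaling, and fell under both. The amidotransferase subunits Gatb (-0.67) and Gatc (-0.46) and the histidyl-tRNA synthetase Hars2 (-0.40) fell as well, and the prolyl-tRNA synthetase Pars2 rose (0.55). Of 26 genes for transcription, replication and RNA handling in mitochondria 14 fell and 1, Fastkd3 (0.70), rose (median -0.35). With total-count scaling 4 of these fell and 12 rose (median 0.21). Hsd17b10, a subunit of mitochondrial RNase P that also degrades isoleucine, fell by 1.63, the polymerase subunit Polg2 by 1.12 and the transcription initiation factor Tfb2m by 0.86 on the log2 scale, and these 3 also fell with total-count scaling. Grsf1, an RNA granule protein, fell by 0.64 with TMM factors.

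Genes for regulators of nuclear-encoded mitochondrial proteins moved both ways: of 13 tested, 6 fell, 2 rose and 5 did not pass. The coactivator Ppargc1a fell from 34.6 ± 17.7 to 11.1 ± 3.08 CPM (SD, n = 4 each, -1.64 ± 0.34, adjusted p = 0.00171, edgeR) and Esrra from 88.8 ± 5.32 to 58.2 ± 6.96 CPM. With total-count scaling Ppargc1a also fell (-1.06), while Esrra did not pass (-0.05). Gabpa, Yy1, Gabpb1 and Sp1 fell by less, with changes of -0.38, -0.35, -0.28 and -0.25 that were 0.19, 0.22, 0.29 and 0.32 with total-count scaling. Myc rose from 8.30 ± 1.08 to 20.7 ± 3.62 CPM (1.32, adjusted p = 2.16e-05, edgeR) and Pprc1, a coactivator related to Ppargc1a, by 0.50. Nrf1 held 13.8 ± 1.65 and 13.7 ± 1.46 CPM and did not pass (-0.01 ± 0.12).

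The median change of the mitoribosomal transcripts lay between that of the cytosolic ribosomal proteins and that of the respiratory chain. Of 79 tested nuclear genes for respiratory chain and ATP synthase subunits 69 fell and 1 rose (median -0.48), and all 13 messenger RNAs of the mitochondrial genome fell (median -0.93). The 77 cytosolic ribosomal protein genes had a median of 0.01, with 9 that rose and 6 that fell. With total-count scaling, where 7.72% of all genes fell and 63.9% rose, 1 of the respiratory subunit genes fell and 19 rose. In that setting 8 of the 13 mitochondrial messenger RNAs fell and all 77 cytosolic ribosomal protein genes rose. The medians were then 0.39 for the members, 0.09 for the respiratory subunits, -0.37 for the mitochondrial messenger RNAs and 0.58 for the cytosolic ribosomal proteins, all moved by the shared shift. Since the RNA was depleted of ribosomal RNA, the levels of the 2 mitochondrial ribosomal RNAs are not interpreted.

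**Figure D3:**
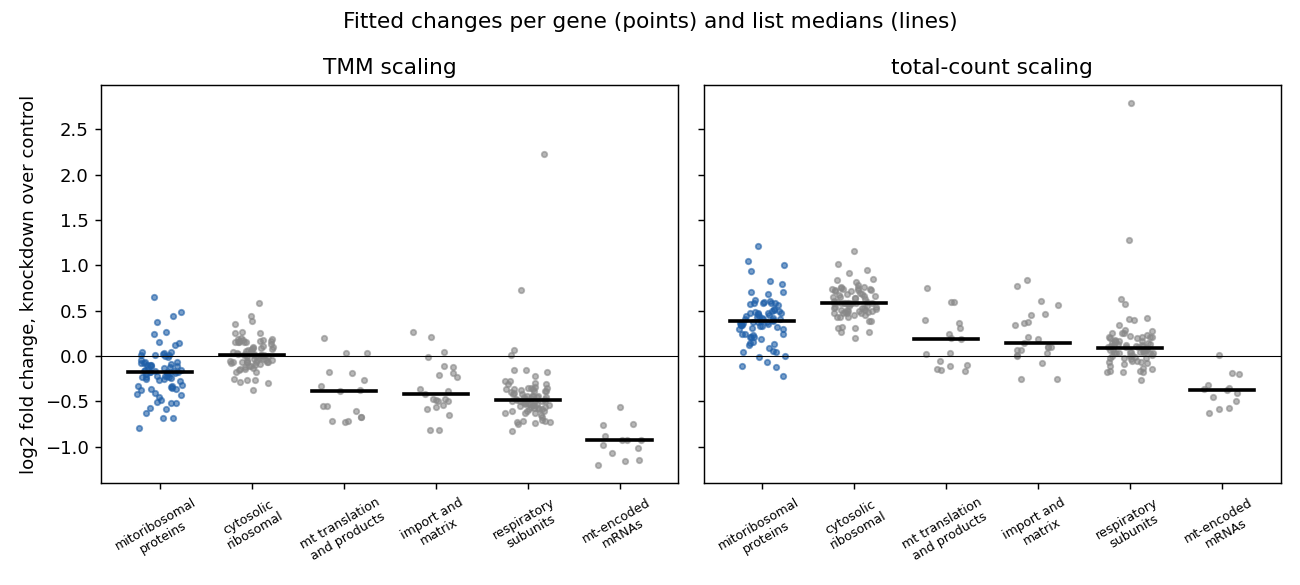
Log2 change of each tested gene (points) with the median of its list (lines), with TMM factors on the left and total-count scaling on the right, for the mitoribosomal proteins (blue) and 5 other lists (grey). The median of the members is -0.18 on the left and 0.39 on the right, between that of the cytosolic ribosomal proteins (0.01 and 0.58) and that of the respiratory subunits (-0.48 and 0.09).

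Ratios of summed counts within a sample carry no scaling. For every 100 CPM of respiratory subunits there were 19.1, 19.0, 18.8 and 19.0 CPM of mitoribosomal proteins in the controls and 22.8, 23.6, 22.1 and 23.1 CPM in the knockdown samples. The groups were far apart relative to their spread, 19.0 ± 0.132 against 22.9 ± 0.592 (SD, n = 4 each). For every 100 CPM of mitochondrial messenger RNA the values were 3.68 ± 0.242 and 5.74 ± 0.674, and for every 100 CPM of 23 genes for import, matrix chaperones, proteases and channels 58.7 ± 1.97 and 66.6 ± 2.97, also without overlap. Against the cytosolic ribosomal proteins the ratio moved the other way, from 18, 17.3, 17.1 and 19.1 to 14.4, 14.5, 15.5 and 15.7 CPM per 100, again without overlap. As a share of all counts, without TMM factors, the mitoribosomal proteins rose in every knockdown sample, from 0.185% ± 0.00564 to 0.232% ± 0.01 (SD, n = 4 each), while their summed CPM with TMM factors went from 2253 ± 67.1 to 1911 ± 159.

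**Figure D4:**
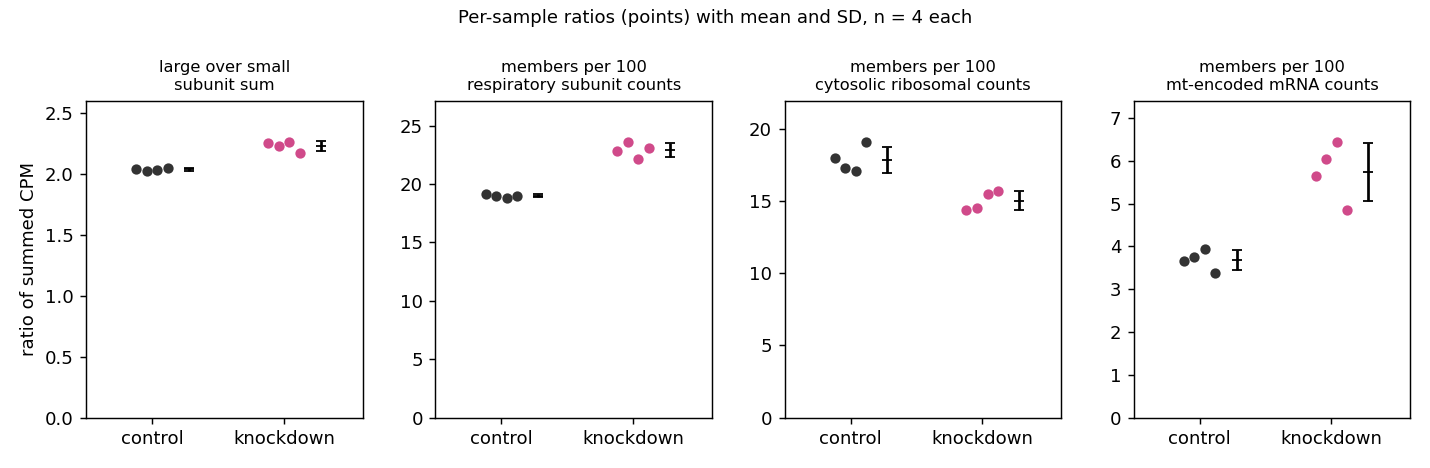
Ratios of summed CPM in each sample (points) with mean and SD (n = 4 each), all axes starting at 0. From left to right are the large over the small subunit, and the mitoribosomal proteins per 100 CPM of respiratory subunits, of cytosolic ribosomal proteins and of mitochondrial messenger RNA. In no panel do the control and knockdown samples overlap, and the third panel is the one in which the knockdown samples are lower (15.0 against 17.9).

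Markers of liver cell types moved with these changes. Of 10 hepatocyte genes 8 fell and none rose, where 27.8% of all genes tested fell and 29.5% rose. Their summed levels were 68607 to 91201 CPM in control livers and 58607 to 76180 CPM in the knockdown samples. Alb, which did not pass (0.04), made up 40862 and 42113 CPM of the sums on average. With total-count scaling 6 of the 10 fell and 2 rose. Of 15 tested macrophage genes 14 rose (659 to 870 against 1710 to 1985 CPM), of 13 T and NK cell genes 11 rose and 1 fell (16.9 to 32.1 against 50.5 to 70.2 CPM), of 11 stellate cell genes 9 rose (205 to 251 against 574 to 987 CPM), and all 8 genes of cycling cells rose (20.1 to 46.5 against 104 to 163 CPM). Of 10 endothelial genes 1 rose and 3 fell, of 6 cholangiocyte genes 3 rose and 1 fell, of 4 neutrophil genes 1 rose, and none of 3 B cell genes passed. Ncr1, Ly6g and Cftr were at 0 in at least 1 sample, and no marker was at 0 in all samples. The part of these shifts in the mitoribosomal results was not tested.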

How the data were processed

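Liver samples, 4 control and 4 knockdown, were compared, grouped by the labels' titles. The authors deposited expected counts per gene (estimated counts, 10.9% of them not whole, rounded here). Per the submitters' processing notes, SAMtools 1.9, GATK 3.8, Bowtie2 2.2.9 and fastp 0.19.5 were applied on mm10. The annotation, the counting step and its use of strand were not given in the sources used here. A second table, the authors' deposited table of their comparison, gives a fold change (ratio), its log2 value, a p-value and an adjusted p-value per gene, per the file headers. It lists 31 members with an adjusted p under 0.05, of which 25 are lower and 6 higher, none marked significant, and the same 31 were called here. From it only gene names, lengths and these counts were taken.

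The 645 assembled loci without a gene identifier (0.676 to 1.08% of counts) were left out. With edgeR 4.0.16 (R 4.3.3), filterByExpr kept 15375 genes, TMM factors were used, and glmQLFTest p-values were adjusted by Benjamini-Hochberg over all of them. Alternatives were DESeq2 1.42.0, limma-voom (limma 3.58.1), RLE, upper-quartile and total-count scaling, other filters, the replicate number or code letter as covariate, the samples coded C alone, keeping the assembled loci, and leaving out each sample. Checks of the subunit ratio and a count without members that share exon bases were chosen after seeing the data. Replicates differed by more than counting noise (lowest chi-square per degree of freedom 8.94). Nothing in the labels ties each sample to its own animal, so a p-value reflects the spread over these samples, which may be technical.

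Positions are from GENCODE mouse release 21, and promoters are the first 300-base window per gene in RefSeq (GRCm38.p6). Members, lists and motifs were chosen with earlier results of these data known. Any member may be named. Given in full were up to 8 largest rises and falls, the 3 highest and 3 lowest levels per kilobase, Mrpl11, Mrpl12, Mrpl32, Mrpl58, Mrps12, Mrps36 and the Mrps18 paralogues, and from each other list of the gene expression machinery up to 4 changed genes with the smallest p-values. Ppargc1a, Pprc1, Gabpb1, Sp1, Nrf1, Pars2, Fastkd3, Lonp1, the genes of the translation list that are not factors, the marker genes at 0 and the genes that share exons or face a member were named after their values were seen.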

Additional observations from a re-analysis of the deposited data

Results flagged for a closer look

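In each group of 4 samples, the highest or lowest value was marked where its gap to the nearest other exceeded, as a share of the range, the critical value of Dixon's test. Of 166 groups checked, 11 were marked, and chance marks about 1 in 20. Of the marked values 4 are in knockdown replicate 1, 3 in knockdown replicate 3, 3 in control replicate 4 and 1 in control replicate 3.

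Knockdown replicate 1 was low for Mrpl1 (18 CPM, the others 19.3), Mrpl18 (42.3 CPM, the others 47.0 to 48.0), Mrpl22 (16.7 CPM, the others 18 to 18.1) and Mrpl43 (26.8 CPM, the others 31.0 to 31.9). Knockdown replicate 3 was high for Mrpl24 (53.0 CPM, the others 41.5 to 42.7), Mrps15 (21.9 CPM, the others 16.7 to 17.2) and Mrps27 (21.8 CPM, the others 15.9 to 16.3). Control replicate 4 was high for Mrpl45 (25.8 CPM, the others 21.7 to 22.2) and low for Mrpl53 (23.3 CPM, the others 26.3 to 26.9) and for the summed CPM of the mitoribosomal proteins (2153, the others 2271 to 2293). Control replicate 3 was high for Mrps16 (14.9 CPM, the others 13.6 to 13.8).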

How the results depend on the processing

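Scaling changed the results most. With total-count scaling 60 members rose, 1 fell and their median was 0.39, where 63.9% of all genes rose and 7.72% fell. Log2 changes that were negative with TMM factors became 0.41 for Mrpl11, 0.32 for Mrpl12, 0.00 for Mrpl24, 0.14 for Mrpl30, 0.24 for Mrpl32, 0.05 for Mrpl47, 0.34 for Mrpl58, 0.40 for Mrps12, 0.41 for Mrps18b, 0.04 for Mrps27 and 0.13 for Mrps34. Outside the members they became 0.18 for Ptcd3, 0.28 for Aurkaip1, 0.17 for Hars2, 0.11 for Gatc, 0.19 for Gabpa and 0.22 for Yy1. That setting moved the log2 changes of all genes upward together, by 0.56 for the median gene. TMM factors also differed within each group, from 0.7759 to 0.8903 in the controls and 1.147 to 1.265 in the knockdown samples. Leaving them out therefore also changed the spread between samples and the p-values. With the samples coded C alone 3 members rose (29.6% of all genes), with fewer samples. Leaving out 1 sample at a time gave 2 to 5 members that rose and 23 to 40 that fell (26.3 to 30.6% and 24.2 to 28.6% of all genes), medians of -0.23 to -0.13 and subunit ratio differences of 0.19 to 0.21. Among the 45 members that share no exon bases 17 fell (37.8%, against 27.8% of all genes) and 5 rose (11.1%, against 29.5%). The rise of the subunit ratio, 0.20 from 2.03, was 0.15 from 2.23 without Mrps5, 0.14 from 2.15 per kilobase and 0.06 from 1.06 with geometric means, or 9.64, 6.77, 6.46 and 6% of the control value. RLE factors, upper-quartile factors, DESeq2, limma-voom, no filter, a mean of at least 1 CPM, the code letter and the assembled loci left 21 to 30 members that fell and 4 to 6 that rose. With no filter 14.5% of all genes fell and 17.7% rose, and 21 members fell and 4 rose. In the other settings of this group 23.6 to 29.6% of all genes fell and 29.2 to 32.7% rose. Replicate numbers did not pair the samples: same-numbered deviations correlated at -0.128, -0.038, 0.058 and 0.148. With the replicate number as a block 25 members fell and 4 rose (26.5% and 28.7% of all genes), and Eif4ebp3 changed by -3.15. Depth limits Mrpl23 most, with 42 to 136 counts per sample.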

Other observations

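Across the 78 members the log2 change had a Spearman rho of -0.28 with the control level per kilobase and -0.17 with transcript length, and of 0.01 with promoter GC content over the 69 members with a window. These are descriptions over genes of the same libraries, which are not independent replicates. Promoter windows of members had a median GC content of 58.3%, against 52.7% for all windows.

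Of 23 genes for mitochondrial import, chaperones and proteases, a list that also holds the outer membrane channels Vdac1, Vdac2 and Vdac3 and citrate synthase (Cs), 16 fell with TMM factors (median -0.42), and 1 gene, the protease Lonp1, rose, from 212 ± 7 to 257 ± 15.6 CPM (SD, n = 4 each, adjusted p = 0.00759, edgeR). With total-count scaling 10 of them rose and 2 fell (median 0.14).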
